A study of Mus musculus with 9 samples.

Results

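The 7 genes Clec4d, Clec4e, Clec4n, Clec4a2, Clec7a, Clec5a and Clec12a, which encode C-type lectin receptors of myeloid cells, were followed through cultures of mouse blood progenitors that had lost Drosha or Dicer. They were taken by gene name from the array's annotation, out of 36413 named genes and regions, and each was read by 1 probe. Their levels are the authors' log2 signals, in which 1 unit is a doubling. Of the 7 genes, 5 lay well above background on all 9 arrays and were tested, among 23020 features that passed the same filter on dim probes. Clec4a2 and Clec12a did not pass it.

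C-type lectin receptors are surface proteins by which monocytes, macrophages, neutrophils and dendritic cells sense sugars and lipids of fungi, mycobacteria and damaged cells. Most signal through an immunoreceptor tyrosine-based activation motif, carried either in their own tail or by the adaptor proteins FcRγ (Fcer1g) and DAP12 (Tyrobp), to the kinase Syk and the adaptor Card9, which switch on cytokine genes. Others carry an inhibitory motif that recruits phosphatases. In bone marrow these genes are known as marks of maturing myeloid cells rather than of stem cells.

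The cells were sorted LSK cells, the lineage-negative, Sca1- and cKit-positive bone marrow fraction in which the stem cells of the blood and its early progenitors are found, from female mice. There were 3 samples each of Drosha-deleted cells (Drosha fl/fl Gt(ROSA)26Sor CreERT2), Dicer-deleted cells (Dicer fl/fl Gt(ROSA)26Sor CreERT2) and control cells (Gt(ROSA)26Sor CreERT2). All 3 groups thus carried the tamoxifen-activated Cre from the Rosa26 locus, which is active in every cell type and not only in one lineage. All were kept for 72 h with 250 nM 4OH-tamoxifen, 10 ng/mL of both IL-6 and IL-3, 50 ng/mL stem cell factor and 10% serum. Mouse age is not stated in the labels. They do not say whether the 3 samples of a group were taken from separate animals. The p-values thus measure only how far these samples spread, which may be technical.

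The arrays were uneven in 3 ways that touch the controls. The slide codes put 8 arrays on 1 slide and only control replicate 3 on a second, so a fit with slide as a block gives the same differences from controls of the tested receptors as leaving that sample out. The authors' columns of control replicates 2 and 3 correlated at 0.995 with each other and at 0.970 to 0.982 with the other 7, which correlated at 0.987 to 0.995 among themselves. The scanner file held for control replicate 2 had 93.2% of its spots well above background, against 54.2% to 62.3% on the other arrays. It correlated at 0.770 with that sample's column, against 0.974 or more elsewhere. The receptors' differences from controls are therefore also given with control replicates 2 and 3 omitted, where control replicate 1 alone is left and is assumed to vary like the other groups. Drosha, listed as Rnasen, was at 8.81, 8.92 and 9.32 in Drosha-deleted cells, at 11.94 to 12.16 in Dicer-deleted cells and at 11.85 to 12.04 in controls. Dicer1 was at 8.97 to 9.18 in Dicer-deleted cells, at 10.00 to 10.80 in Drosha-deleted cells and at 9.92 to 10.50 in controls, so both genes were lowest in the cells labelled as lacking them. The difference from controls passed the threshold for Drosha in Drosha-deleted cells (−2.91; limma, adjusted p = 0.000153) and not for Dicer1 in Dicer-deleted cells (−1.24; limma, adjusted p = 0.118). Of 10 genes that mark LSK cells, 9 passed the filter, and so did all 11 monocyte and macrophage genes and all 11 neutrophil genes found on the array. Genes of maturing myeloid cells were thus measured beside stem cell genes, each in at least 1 group, which is all that the filter asks.

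All 7 genes lie on chromosome 6 and form 3 neighbourhoods. The probes of Clec4a2, Clec4n, Clec4d and Clec4e lie in the Clec4 cluster (mm9, 123093890 to 123232937), and in the GRCm38.p6 gene order Clec4n, Clec4d and Clec4e follow each other with no other protein-coding gene between them. Clec12a (mm9, 129314880 to 129314939) and Clec7a (129411739 to 129411798) lie in a second cluster, and Clec5a (40525116 to 40525175) stands alone between an odorant and a taste receptor gene. The bases before the transcription start are shown for Clec4d and Clec4e, the adjoining pair whose 3 lowest samples were the Drosha-deleted ones, and for Clec7a, whose lowest sample was a Dicer-deleted one. They come from RefSeq on GRCm38.p6, 250 bases each, 5′ to 3′ on the strand of the gene. Capitals mark matches to 2 motifs, the PU.1 core GAGGAA and the C/EBP motif TTGCNNAA, on either strand.
Clec4d promoter (chr6:123261857-123262106, plus strand): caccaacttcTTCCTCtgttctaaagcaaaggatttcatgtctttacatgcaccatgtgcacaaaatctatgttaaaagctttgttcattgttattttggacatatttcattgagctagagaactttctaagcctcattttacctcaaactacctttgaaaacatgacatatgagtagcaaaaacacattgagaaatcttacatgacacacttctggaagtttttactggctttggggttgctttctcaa
Clec4e promoter (chr6:123289872-123290121, minus strand): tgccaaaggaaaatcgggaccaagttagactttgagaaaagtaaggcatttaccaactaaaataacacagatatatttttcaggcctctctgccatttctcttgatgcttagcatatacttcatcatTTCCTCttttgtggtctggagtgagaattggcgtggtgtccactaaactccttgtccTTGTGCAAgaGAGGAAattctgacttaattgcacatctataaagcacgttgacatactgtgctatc
Clec7a promoter (chr6:129472780-129473029, minus strand): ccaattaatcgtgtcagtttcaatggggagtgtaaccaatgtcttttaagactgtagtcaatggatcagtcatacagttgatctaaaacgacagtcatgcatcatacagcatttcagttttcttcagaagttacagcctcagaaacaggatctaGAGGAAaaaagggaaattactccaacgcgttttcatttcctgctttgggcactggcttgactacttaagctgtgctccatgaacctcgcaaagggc
PU.1 and the C/EBP proteins are transcription factors of myeloid cells. The Clec4d window held 1 PU.1 core, starting 240 bases before the start. The Clec4e window held 2, at 123 and 56 bases before it, and a C/EBP match at 66 bases, which does not overlap either. Clec7a held 1 PU.1 core at 96 bases. Of the 6 genes with a promoter entry, 5 held a PU.1 core, against 23.4% of 32536 promoter windows, and 2 held a C/EBP match, against 9.57%. The AP-1 motif TGANTCA was found in Clec12a alone, against 6.73% of windows. A match describes these letters and is not a binding site.

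Clec4d fell 2.32-fold in Drosha-deleted cells relative to controls, and it alone among the 7 genes passed the test over all features. Clec4d encodes MCL, also called Dectin-3, a receptor for mycobacterial glycolipid that pairs with the product of Clec4e. Its log2 signal was 11.69, 11.46 and 11.88 in Drosha-deleted replicates 1 to 3, 12.46, 12.78 and 12.76 in Dicer-deleted replicates, and 13.03, 12.72 and 12.91 in controls. Every Drosha-deleted sample lay below every sample of the other groups, while the Dicer-deleted and control ranges overlapped. The difference from controls was −1.21 (SE 0.15, n = 3 each; limma, adjusted p = 0.0290), with a 95% confidence interval of −1.56 to −0.86. Among all features, 0.0478% were called lower in this comparison. In bulk RNA, fewer cells of a type and less RNA per cell cannot be told apart. In Dicer-deleted cells the difference from controls was −0.22 (interval −0.57 to 0.13, limma adjusted p = 0.403), an interval that leaves out a difference of −1.21. Set against each other, Drosha-deleted and Dicer-deleted cells differed by −0.99 (interval −1.34 to −0.64), which missed the threshold over all features (limma, adjusted p = 0.112, unadjusted p = 0.000127). In that comparison 0.00434% of features were called lower and 2.43% had an unadjusted p under 0.05 in that direction.

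Clec4d stayed lower in Drosha-deleted cells whichever samples and fit were used, but its call depended on both. With control replicates 2 and 3 omitted it was −1.36, and with them as a block also −1.36 (limma, adjusted p = 0.160 and 0.0842). Without control replicate 2 alone it was −1.29 (limma, adjusted p = 0.0835), and without control replicate 1 it was −1.14 (limma, adjusted p = 0.00167). Without control replicate 1, 7743 of 23020 features were called in either direction, against 39 as reported. In the scanner values without control replicate 2 it was −1.48 (limma, adjusted p = 0.0999). In the authors' values, the call was also lost with only 2 groups in the fit and with the replicate number as a block (limma, adjusted p = 0.109 and 0.116). Leaving out Dicer-deleted replicate 1 or 2, which are outside this comparison, lost it too (limma, adjusted p = 0.0561 and 0.0587). Of 23 alternatives, 9 kept the call and 14 did not, and all 23 had Clec4d lower in Drosha-deleted cells, from −0.67 with all scanner files to −1.48. Among the 9 were the fit without control replicate 1 and that with array weights, which called 11642 features.

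**Figure D1:**
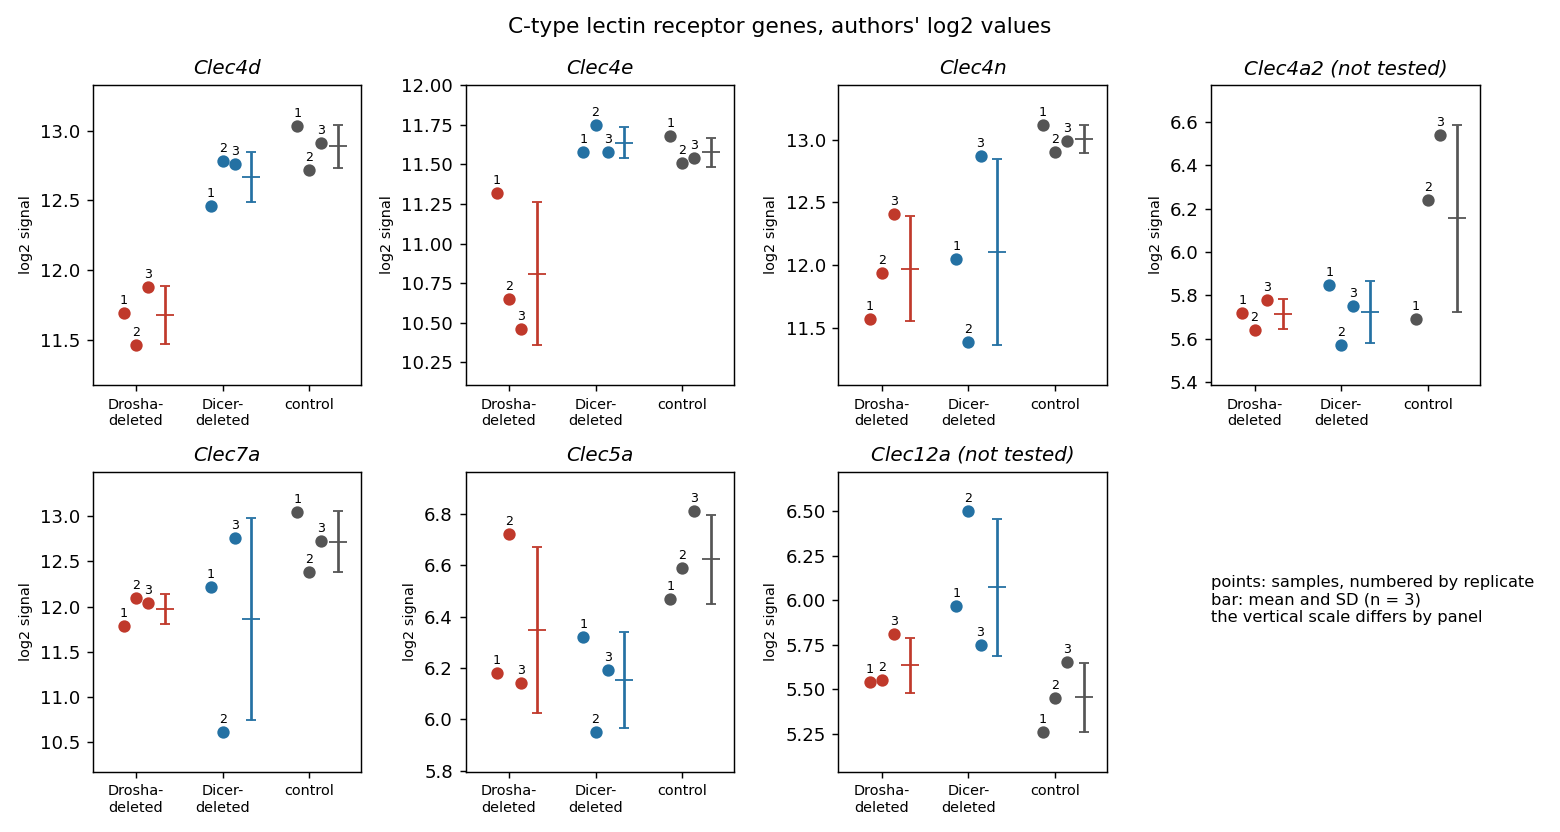
Log2 signal (authors' values, vertical axis) of each receptor gene in the 9 samples, with the mean and SD of each group beside the points (n = 3). For Clec4d and Clec4e the 3 Drosha-deleted samples are the lowest, while for Clec4n and Clec7a Dicer-deleted replicate 2 is the lowest point of all, at 11.39 and 10.61.

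**Figure D2:**
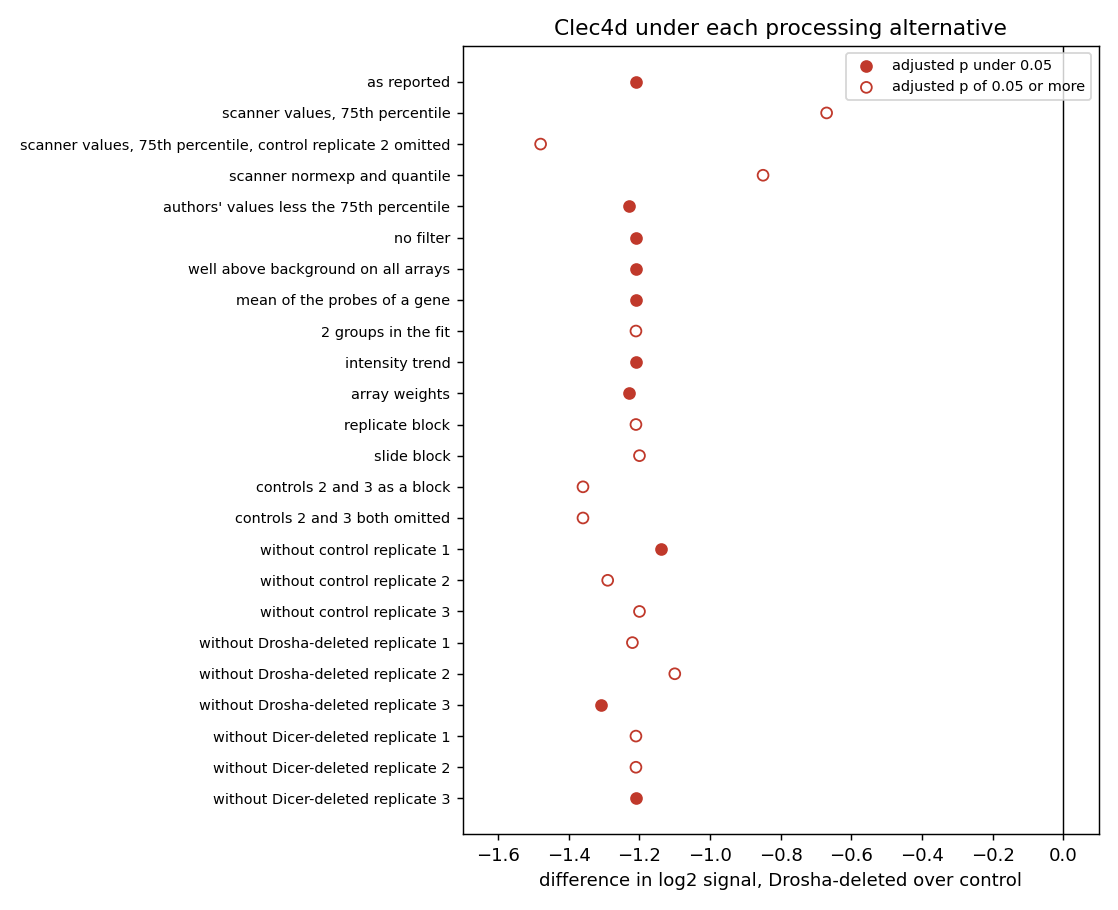
Difference of Clec4d in log2 signal between Drosha-deleted cells and controls (horizontal axis) as reported and under each of 23 alternatives. Filled points have a limma adjusted p under 0.05, and all points lie left of 0, between −1.48 and −0.67.

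Clec4e, like its neighbour Clec4d, was lowest in Drosha-deleted cells, with a smaller difference that missed the threshold. It encodes Mincle, which binds trehalose dimycolate, the cord factor of mycobacteria, and signals through FcRγ. Its log2 signal was 11.32, 10.65 and 10.46 in Drosha-deleted replicates 1 to 3, 11.58, 11.75 and 11.58 in Dicer-deleted replicates, and 11.68, 11.51 and 11.54 in controls. The Drosha-deleted samples lay below all others, replicate 1 by the smallest gap. The difference from controls was −0.77 (SE 0.20, 1.70-fold; limma, adjusted p = 0.103, unadjusted p = 0.00454). From Dicer-deleted cells it was −0.83 (limma, adjusted p = 0.398). Dicer-deleted cells differed from controls by 0.06 (interval −0.40 to 0.52; limma, adjusted p = 0.882). With control replicates 2 and 3 omitted the difference of Drosha-deleted cells from controls was −0.87 (limma, adjusted p = 0.872), and in the scanner values it was −0.92 without control replicate 2 and −0.17 with all 9 files (limma, adjusted p = 0.312 and 0.879).

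Clec4n and Clec7a, the receptors of fungal sugars, had lower means in both deletions, and none of these differences passed the threshold. Clec4n encodes Dectin-2, which binds fungal mannans and signals through FcRγ. Its log2 signal was 11.57, 11.94 and 12.41 in Drosha-deleted replicates 1 to 3, 12.05, 11.39 and 12.87 in Dicer-deleted replicates, and 13.12, 12.90 and 12.99 in controls. All 6 samples of the deletions lay below the controls, Dicer-deleted replicate 3 by only a small gap. The differences from controls were −1.03 in Drosha-deleted cells (SE 0.34; limma, adjusted p = 0.124) and −0.90 in Dicer-deleted cells (SE 0.34; limma, adjusted p = 0.195). With control replicates 2 and 3 omitted they were −1.15 and −1.01.

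Clec7a encodes Dectin-1, the receptor of fungal β-glucan, whose own tail carries the activating motif. It was at 11.78, 12.10 and 12.04 in Drosha-deleted replicates 1 to 3, 12.22, 10.61 and 12.76 in Dicer-deleted replicates, and 13.05, 12.38 and 12.73 in controls. The Drosha-deleted samples lay below the controls, whereas the Dicer-deleted samples spread over 2 units and overlapped them. The differences from controls were −0.75 in Drosha-deleted cells (interval −1.79 to 0.30; limma, adjusted p = 0.317) and −0.86 in Dicer-deleted cells (interval −1.90 to 0.19; limma, adjusted p = 0.296). With control replicates 2 and 3 omitted they were −1.08 and −1.19. Dicer-deleted replicate 2 set much of that spread. Without it the Dicer-deleted difference was −0.23 for Clec7a and −0.54 for Clec4n, and for Clec7a the difference of Drosha-deleted from Dicer-deleted cells was −0.51, against 0.11 with all 3 samples.

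The remaining 3 genes were dim. Clec5a, whose product MDL-1 signals through DAP12, was at 6.18, 6.72 and 6.14 in Drosha-deleted replicates 1 to 3, 6.32, 5.95 and 6.19 in Dicer-deleted replicates, and 6.47, 6.59 and 6.81 in controls. The Dicer-deleted samples lay below the controls and the Drosha-deleted samples overlapped them. Its differences from controls were −0.28 in Drosha-deleted cells (limma, adjusted p = 0.351) and −0.47 in Dicer-deleted cells (limma, adjusted p = 0.20), and −0.12 and −0.32 with control replicates 2 and 3 omitted. The Drosha-deleted difference was −0.47 without Drosha-deleted replicate 2 and −0.17 without replicate 3. Clec4a2 encodes DCIR, a receptor with an inhibitory motif, and was well above background on 1 Drosha-deleted, 0 Dicer-deleted and 2 control arrays. It lay between 5.57 and 6.54 in all samples. Clec12a, another inhibitory receptor, was well above background on 0 Drosha-deleted, 1 Dicer-deleted and 1 control array, and lay between 5.26 and 6.50. No fold is given for either, because neither was measured above background throughout any group.

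Over the 5 tested genes, the median difference in log2 signal was −0.77 in Drosha-deleted cells and −0.47 in Dicer-deleted cells against controls. Between the deletions it was −0.13. Over all 7 genes these medians were −0.75, −0.44 and −0.13, where −0.44 is the value of Clec4a2, which did not pass the filter. With control replicates 2 and 3 omitted, the medians of the 7 against controls were −0.87 and −0.32. Their Dicer-deleted median was −0.24 without control replicate 3 and −0.28 without Dicer-deleted replicate 2. The median over all tested features was 0.00 in each comparison. Groups did not overlap, with Drosha-deleted cells lower than controls, for 4 of the 5 tested genes, against 10.5% of all features. For Dicer-deleted cells against controls these were Clec4n and Clec5a, against 9.95%, and for Drosha-deleted against Dicer-deleted cells Clec4d and Clec4e, against 6.79%. Past the threshold were 1, 0 and 0 genes, where 0.0130% of features were called lower in Dicer-deleted cells. At an unadjusted p under 0.05 in limma there were 3, 2 and 2 genes, all lower, against 11.5%, 9.11% and 2.43% of features in that direction and 26.9%, 21.9% and 5.66% in either. Both comparisons with controls share the same control samples. Across the 9 samples Clec4d and Clec4e correlated at 0.81 and Clec4n and Clec7a at 0.88, while Clec4e and Clec7a correlated at 0.05. These correlations describe 9 samples that share groups and arrays.

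**Figure D3:**
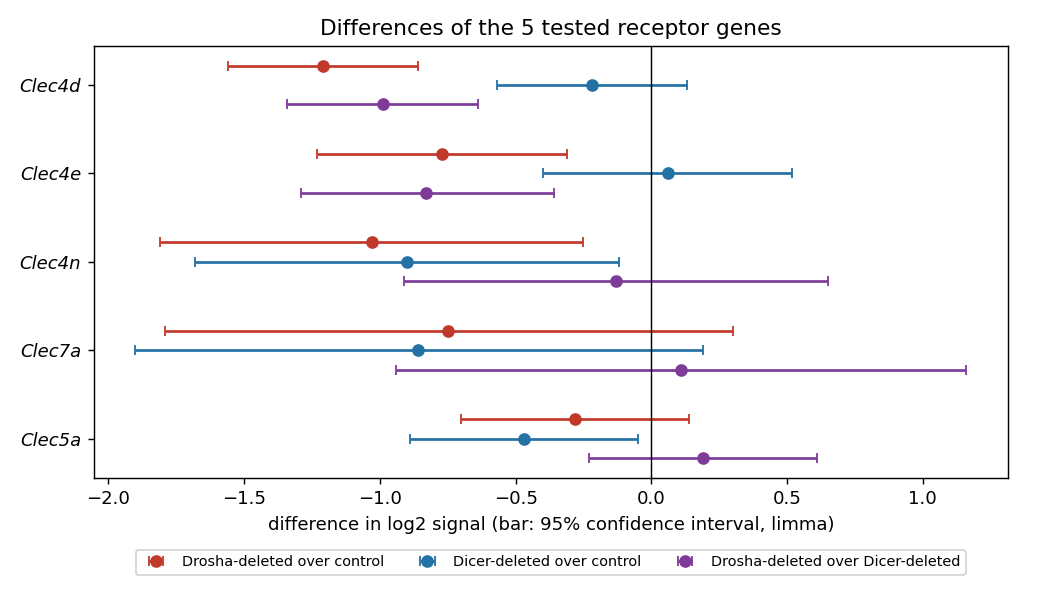
Differences in log2 signal (horizontal axis) of the 5 tested receptor genes in the 3 comparisons, with 95% confidence intervals from limma. Clec4d and Clec4e lie left of 0 in Drosha-deleted cells against both other groups and near 0 in Dicer-deleted cells against controls, and Clec4n and Clec7a lie left of 0 in both deletions with wider intervals.

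Along the Clec4 cluster, 7 of 9 Clec4 genes were tested. In Drosha-deleted cells 6 of these 7 had a negative difference from controls, and in Dicer-deleted cells also 6 of 7. Clec4d was the sole one past the threshold. Clec4b1, Clec4a1 and Clec4a3, further lectin genes of the cluster, differed by −0.79, −0.75 and −0.38 in Drosha-deleted cells and by −0.88, −0.70 and −0.65 in Dicer-deleted cells, with no adjusted p under 0.05 in limma. Clec4b2 went the other way in Drosha-deleted cells (0.69, interval −0.77 to 2.14). On the flanks Necap1, a gene of clathrin-coated vesicles, had a difference of 0.80 in Drosha-deleted cells (limma, adjusted p = 0.0652), and the pheromone receptor gene Vmn2r19 one of 0.38.

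**Figure D4:**
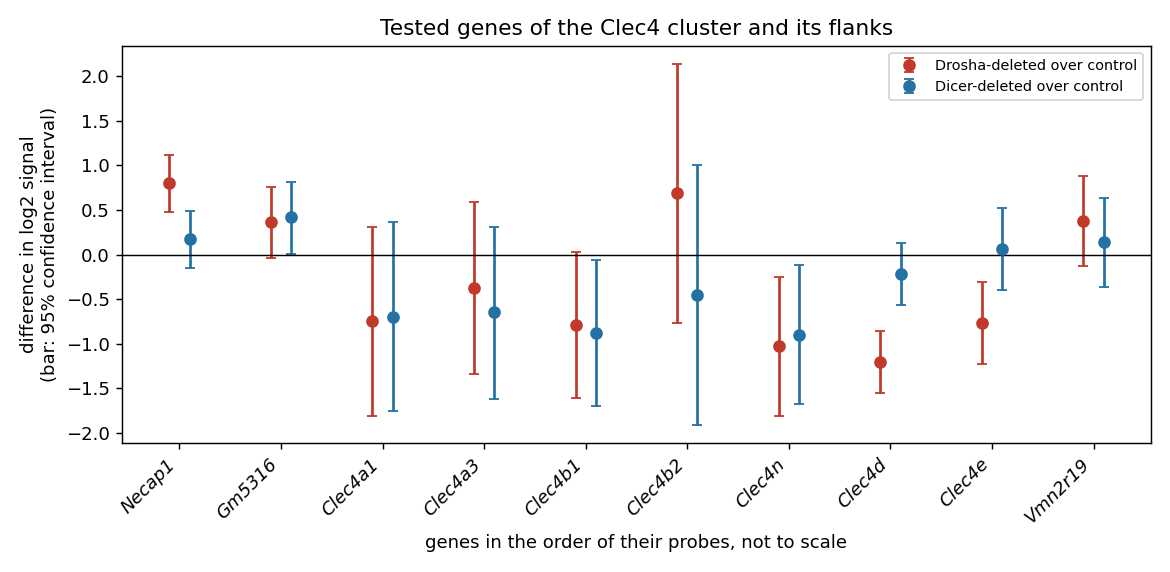
Differences in log2 signal from controls (vertical axis) of the tested genes of the Clec4 cluster and its flanks, in probe order, with 95% confidence intervals from limma. Clec4d and Clec4e lie at −1.21 and −0.77 in Drosha-deleted cells and at −0.22 and 0.06 in Dicer-deleted cells, while Clec4n and Clec4b1 lie below 0 in both.

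Other C-type lectin receptor genes did not pass the test. All 24 were on the array and 17 were tested, with a median difference of −0.28 in Drosha-deleted cells and −0.32 in Dicer-deleted cells from controls. None passed in limma in any comparison, and 3, 5 and 3 had an unadjusted p under 0.05 in either direction. These counts are for Drosha-deleted over control, Dicer-deleted over control and Drosha-deleted over Dicer-deleted cells, against 26.9%, 21.9% and 5.66% of all features. Clec1a, a receptor gene beside Clec7a, had log2 signals of 7.08, 7.17 and 7.42 in Drosha-deleted cells, 7.81, 7.80 and 7.05 in Dicer-deleted cells and 7.86, 8.65 and 8.76 in controls. Its difference in Drosha-deleted cells was −1.20 (limma, adjusted p = 0.0898), but control replicate 1 stood well below the other controls. Clec9a, by which dendritic cells sense dead cells, differed by −0.87 in Dicer-deleted cells (limma, adjusted p = 0.144).

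The signalling genes downstream of the receptors showed no call. The adaptor genes Fcer1g and Tyrobp differed from controls by 0.03 and −0.34 in Drosha-deleted cells and by −0.16 and −0.38 in Dicer-deleted cells, and Hcst, which encodes the adaptor DAP10, by −0.19 and −0.15. Of 20 genes of activating signalling all were tested and 0 passed in limma, with medians of −0.13 in Drosha-deleted cells and −0.11 in Dicer-deleted cells. At an unadjusted p under 0.05 there were 3 and 6 of them, against 26.9% and 21.9% of all features in either direction. Bcl10, which joins Card9 to NF-κB signalling, had −0.89 in Drosha-deleted cells (limma, adjusted p = 0.132). It was at 11.33, 11.35 and 11.29 there, and at 11.33 in control replicate 1 against 12.60 and 12.70 in control replicates 2 and 3. Vav1, a signalling protein downstream of Syk, had −0.36 (limma, adjusted p = 0.140). It was at 14.85 to 15.00 in Drosha-deleted cells and at 15.04 in control replicate 1, against 15.43 and 15.36 in control replicates 2 and 3. Of 9 genes of inhibitory signalling 0 passed in limma, with medians of −0.51 and −0.39. With an unadjusted p under 0.05 there were 2 and 1, against the same 26.9% and 21.9% of features. They included the phosphatase gene Ptpn11 (−0.54 in Drosha-deleted cells, limma adjusted p = 0.109) and the ubiquitin ligase gene Cblb (−0.56, limma adjusted p = 0.165).

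Genes that these receptors are known to induce, and transcription factors of myeloid cells, likewise held no call. Of 20 target genes 14 were tested, with a median difference of −0.32 in Drosha-deleted cells and −0.25 in Dicer-deleted cells. Past the threshold in limma were 0, and 2 and 3 had an unadjusted p under 0.05, against 26.9% and 21.9% of features in either direction. Nfkbiz, a regulator of NF-κB, differed by −0.62 in Drosha-deleted cells (limma, adjusted p = 0.114), and Nos2, the inducible nitric oxide synthase, by 0.80 (limma, adjusted p = 0.147). Nos2 was at 10.10 to 10.17 in Drosha-deleted cells and at 10.19 in control replicate 1, against 8.80 and 9.05 in control replicates 2 and 3. All 13 transcription factor genes were tested, with medians of −0.12 in both deletions and 0 past the threshold. At an unadjusted p under 0.05 there were 1 and 0 of them, against the same shares of features. Mitf, a factor of mast cells and osteoclasts, differed by −0.56 in Drosha-deleted cells (limma, adjusted p = 0.125), and Nfe2l2, which drives antioxidant genes, by −0.29.

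On average, monocyte and macrophage genes were low in the same samples as the tested receptors, but this did not hold for each receptor. The mean log2 signal of 11 such genes, none of them a lectin receptor of the 7, was 9.10 to 9.21 in Drosha-deleted cells, 8.96 to 9.82 in Dicer-deleted cells and 9.59 to 10.13 in controls. The mean over the 5 tested receptor genes was 10.51 to 10.58, 10.50 to 11.23 and 11.22 to 11.47 in the same groups. In both means, the Drosha-deleted samples lay below the controls. Dicer-deleted replicate 2 lay below every Drosha-deleted sample, for the receptors at 10.50 against 10.51 in the lowest of them. In that replicate Clec4n and Clec7a were the lowest of their group (11.39 and 10.61), while Clec4d and Clec4e were the highest (12.78 and 11.75). Of the 11 genes 10 had a negative difference from controls in Drosha-deleted cells, with a median of −0.92. In limma 5 were lower and 1 higher there at an unadjusted p under 0.05, against 26.9% of features in either direction. Past the threshold was 1, where 0.0478% of features were called lower. That was Cd14, a coreceptor for endotoxin, at 9.71, 9.57 and 9.18 in Drosha-deleted cells, 10.68, 10.35 and 10.35 in Dicer-deleted cells and 10.63, 10.83 and 10.77 in controls (−1.26; limma, adjusted p = 0.0300). The call of Cd14 was not followed under the alternatives used for Clec4d. Fcgr1, the high-affinity Fc receptor gene, differed by −0.92 in Drosha-deleted cells (limma, adjusted p = 0.0602). In Dicer-deleted cells the median of the 11 genes was −0.33, with 0 past the threshold. At an unadjusted p under 0.05 in limma were 2, C1qa lower (−1.32) and Itgam higher (0.70), against 21.9% of features in either direction. Itgam was also higher in Drosha-deleted cells (0.72; limma, adjusted p = 0.144). It was at 14.70 in control replicate 1 against 13.86 and 13.83 in control replicates 2 and 3. The part of the 11 genes in the receptors' difference was not tested.

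**Figure D5:**
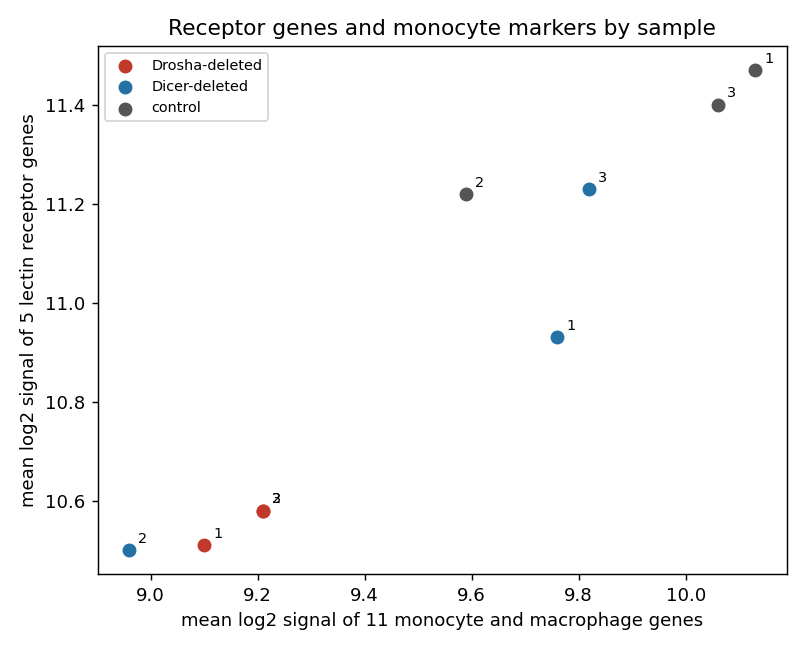
Mean log2 signal of the 5 tested receptor genes (vertical axis) against that of 11 monocyte and macrophage genes (horizontal axis), with samples numbered by replicate. The 3 Drosha-deleted samples, 2 of which coincide, and Dicer-deleted replicate 2 lie low on both axes, and the controls lie above them on both. Control replicate 2 lies below Dicer-deleted replicate 3, at 9.59 against 9.82 on the horizontal axis and 11.22 against 11.23 on the vertical axis.

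For other lineages the median differences were smaller in Drosha-deleted cells. Neutrophil genes had a mean of 14.29 to 14.94 in Drosha-deleted cells, 13.45 to 15.12 in Dicer-deleted cells and 13.88 to 15.17 in controls, with median differences of 0.33 and −0.08. Dendritic cell genes had medians of −0.07 in Drosha-deleted cells and −0.70 in Dicer-deleted cells, and megakaryocyte genes −0.18 and −0.75. LSK genes had medians of −0.02 and −0.17. The medians in Drosha-deleted and Dicer-deleted cells were 0.02 and −0.07 for eosinophil genes, −0.16 and −0.16 for mast cell and basophil genes, and 0.25 and 0.14 for erythroid genes. B cell genes, of which 3 of 6 passed the filter, had 0.27 and 0.10, and T and NK cell genes, with 4 of 7, had 0.38 and 0.32. The mean of those T and NK cell genes was 11.41 in control replicate 1, against 10.47 and 10.64 in control replicates 2 and 3. It was 10.99 to 11.35 in Drosha-deleted cells and 10.90 to 11.35 in Dicer-deleted cells. No gene of these lists passed the threshold in limma.

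The genes of these lists with the smallest adjusted p are given by their difference from controls. In Drosha-deleted cells, among LSK genes, the cytokine receptor gene Flt3, also on the dendritic list, had 0.73 (limma, adjusted p = 0.0915) and Procr, a stem cell surface gene, −0.68 (limma, adjusted p = 0.139). The megakaryocyte genes Vwf and Gp6 had −0.70 and −0.75 (limma, adjusted p = 0.108 and 0.110). The T cell genes Cd4 and Cd3e had 1.46 and 0.81 (limma, adjusted p = 0.103 and 0.129). Cd4 was at 12.53 to 12.63 in Drosha-deleted cells and at 12.24 in control replicate 1. It was at 10.43 in control replicate 2, with control replicate 3 close to that. Cd3e had a mean of 10.86 in Drosha-deleted cells. It was at 10.74 in control replicate 1, against 9.62 and 9.78 in control replicates 2 and 3. The B cell genes Cd79b and Cd79a had 0.44 and 0.27 (limma, adjusted p = 0.178 and 0.239). The eosinophil ribonuclease genes Ear1 and Ear2, near-identical copies whose probes may share signal, had 1.83 and 2.05 (limma, adjusted p = 0.124 and 0.141). The neutrophil genes Mmp8, a collagenase, and S100a8, a calcium-binding protein, had −1.59 and 0.77 (limma, adjusted p = 0.181 and 0.381). The erythropoietin receptor gene Epor and the globin gene Hba-a1 had −0.43 and 1.28 (limma, adjusted p = 0.151 and 0.194). In Dicer-deleted cells, the chemokine receptor gene Ccr7 of the dendritic list had −1.36 (limma, adjusted p = 0.139). The mast cell and basophil genes Tpsb2, a tryptase, and Il4, a cytokine, had −0.79 and −0.64 there (limma, adjusted p = 0.152 and 0.382).

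The genes whose profile over the 9 samples was most like the mean standardised profile of the 7 receptors were Dpep2, Lhfpl2, Amz1, Mif4gd, Mpeg1, Trps1, Osbpl3, Stard9, Lsr and Slc23a3. They were ranked by Pearson correlation among tested genes, with r from 0.942 for Slc23a3 and Lsr to 0.991 for Dpep2. The receptor profile weights all 7 genes alike, with Clec4a2 and Clec12a, which did not pass the filter, among them. Clec12a ran against 2 of the brighter receptors, with r of −0.79 with Clec7a and −0.61 with Clec4n. Dpep2, a membrane dipeptidase gene, was at 6.07, 6.14 and 6.16 in Drosha-deleted cells, 7.08, 6.32 and 7.09 in Dicer-deleted cells and 7.25, 7.31 and 7.72 in controls. Mpeg1, which encodes the pore-forming protein perforin-2 of macrophages, was at 10.97, 11.41 and 11.71, at 12.13, 11.15 and 12.47, and at 12.43, 12.47 and 13.08 in the same groups (r = 0.948). In both, Dicer-deleted replicate 2 was the lowest of its group, and every Drosha-deleted sample lay below every control, as for 10.5% of all features. Both genes were picked for their likeness to a profile with this order, so the order follows from the choice. None of the 10 genes passed the threshold in any comparison.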

How the data were processed

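RNA of 9 samples was hybridised to 1-colour Agilent arrays with 62976 spots (design 028005), scanned with Feature Extraction 10.7.3.1 and protocol GE1_107_Sep09, per the file headers, whose probe positions are on mm9. The main values are the authors' deposited log2 values, for which the sources used here state neither background correction nor normalization. The submitters' processing notes name limma, without a version. The deposited scanner files hold each spot's intensity, and served for the filter and as an alternative. They were not the main values because the file of control replicate 2 did not match that sample's log2 column.

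A gene was read by its brightest probe on average and tested if that probe was well above background on every array of a group. Group means were fitted over all 9 samples by limma 3.58.1 (R 4.3.3) and p-values adjusted by Benjamini-Hochberg over 23020 features and a threshold of 0.05. The code was tested on simulated data. The members and all gene lists were chosen with earlier results of these data known. All members were described, and from each other list up to 4 genes past the threshold or otherwise the 2 with the smallest adjusted p, beside the 10 genes most like the members. Adaptor genes, Cd14, Fcgr1, C1qa, Itgam and genes of the Clec4 cluster are given as well. The number of arrays limits the precision. Replicate numbers do not pair the samples: same-numbered deviations correlated at −0.28 to 0.24.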

Additional observations from a re-analysis of the deposited data

How the results depend on the processing

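The count of receptor genes past the threshold in Drosha-deleted cells against controls, 1 as reported, was 0 in the scanner values with or without control replicate 2, after normexp, with only 2 groups in the fit, with the slide or the replicate number as a block (replicate block, Clec4d −1.21, limma adjusted p = 0.116), and with control replicates 2 and 3 as a block or omitted. The last 2 settings were chosen after seeing the data. It was 3 with array weights and 0 to 2 when samples were left out in turn. Array weights also gave 2 genes in Dicer-deleted cells against controls and 1 between the deletions, where 0 had passed. The median difference of the receptors in Drosha-deleted cells was −0.27 after normexp, and between the deletions it ranged from −0.49 to 0.01 when samples were left out in turn, the lowest without Dicer-deleted replicate 2. Signs that turned were those of Clec4d in Dicer-deleted cells against controls (0.37 in the scanner values, 0.11 after normexp), Clec4e in the same comparison (−0.06 in the scanner values without control replicate 2, −0.05 with control replicates 2 and 3 as a block or omitted), and Clec7a between the deletions with array weights (−0.03). Between the deletions, samples left out in turn gave −0.49 to 0.25 for Clec4n and −0.51 to 0.56 for Clec7a. With control replicate 2, the scanner scaling shifted the median of all features by 0.36 and 0.38 in the deletions against controls, and normexp by 0.21 and 0.20. For Clec5a the scanner values leave out the spot of control replicate 2. The causes were not tested.

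Features called in Drosha-deleted cells against controls, 39 as reported, numbered 7 and 10 in the scanner values with and without control replicate 2, 1 after normexp, 25 with no filter, 5 with 2 groups, 11642 with array weights, 4 with the replicate block and 13 with the slide block, and 4 to 7743 when samples were left out, the highest without control replicate 1. In Dicer-deleted cells, 4 as reported, they numbered 0 after normexp, with 2 groups and with the replicate block, 2 with no filter, with the all-array filter and with an intensity trend, 10026 with array weights, 23 and 21 with control replicates 2 and 3 as a block and omitted, and 0 to 7020 when samples were left out, the highest again without control replicate 1. Between the deletions, 13 as reported, they numbered 2 and 5 in the scanner values, 1 after normexp, 20 with the trend, 150 with array weights, 5 with the replicate block, 7 with the slide block and 4 to 16 when samples were left out.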
